A study of Mus musculus with 9 samples.

Results

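The 34 genes described here encode the route by which liver mitochondria burn fatty acids. They are the nuclear receptor PPARα (Ppara), the enzymes that activate fatty acids to acyl-CoA, the carnitine shuttle, the enzymes of the β-oxidation cycle and those that pass its electrons on, 3 acyl-CoA thioesterases, and Acat1 and Bdh1, which alone stand here for ketone body formation. The members are a fixed list of symbols, matched through the RefSeq accession of each non-control probe, and make up 34 of the 20972 genes named on the array. They were read by 48 of 55681 probes. All 48 probes were well above background on all 9 arrays, so no member was lost to the filter on dim probes, which left 26277 probes to be tested.

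Expression arrays (Agilent, 1 colour) read the liver RNA of 9 male mice at an age of 20 weeks, each mouse on an array of its own. STAM mice are a model of diabetes with fatty liver disease and liver cancer, made in the study from C57BL/6J mice by a low dose of streptozotocin, a toxin of the insulin-secreting β cells, soon after birth and a high-fat diet from weaning. STAM-NON mice (n = 3) had no treatment. STAM-INS mice (n = 3) received insulin glargine from 6 weeks of age by repeated injections under the skin each day, with a dose raised by blood glucose. Normal mice (n = 3) had no streptozotocin and ate regular chow. The untreated and insulin-treated STAM mice therefore shared toxin and diet, and differed in insulin, while Normal differed from both in toxin, diet and liver disease at once. The labels name the tissue as liver, and the sources used here do not say whether a STAM piece came from tumour or from the liver around it. The 10 hepatocyte markers examined, Alb and Apoa1 among them, were well above background on all arrays. The 3 Normal arrays shared a slide that held no STAM array, and the 6 STAM arrays shared another, so that slide and group cannot be told apart in any comparison with Normal.

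Fatty acids of long chain are first activated to acyl-CoA, then carried across the inner mitochondrial membrane as carnitine esters, and then shortened in repeated rounds of dehydrogenation, hydration, a further dehydrogenation and thiolysis to acetyl-CoA. Entry through Cpt1a is blocked by malonyl-CoA, the product of acetyl-CoA carboxylase, which insulin favours. In the fasted or diabetic liver PPARα switches on much of this route, and the acetyl-CoA made in excess is released as ketone bodies.

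Values are log2 of the processed spot signal after subtraction of that array's 75th percentile, so that 0 is the level of the spot at that percentile. Levels of different genes are not compared with each other, since each is read by its own probe. Differences are on the same log2 scale, with the standard error (SE), and a gene is said to rise or fall only where the adjusted p of limma, corrected over all 26277 probes, was under 0.05. In a piece of liver, fewer cells of a type cannot be told apart from less RNA per cell.

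PPARα acts by binding, with its partner RXR, to a direct repeat of the sequence AGGTCA, and the promoters of members that moved in opposite directions are shown for reference. They run from 250 bases before to 50 after the gene start, are taken from RefSeq (GRCm38.p6), and carry any copy of AGGTCA, on either strand, in capitals. The first is that of Ppara, at chr15:85735526-85735825 on the + strand, the second that of Acadm, at chr3:153944594-153944893 on the − strand, and the third that of Acsl3, at chr1:78657575-78657874 on the + strand.
Ppara: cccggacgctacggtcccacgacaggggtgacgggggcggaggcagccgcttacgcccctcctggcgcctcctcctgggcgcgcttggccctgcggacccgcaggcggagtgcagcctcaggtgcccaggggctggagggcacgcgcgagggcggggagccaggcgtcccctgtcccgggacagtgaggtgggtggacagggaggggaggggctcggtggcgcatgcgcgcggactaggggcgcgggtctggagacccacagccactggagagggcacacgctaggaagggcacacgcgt
Acadm: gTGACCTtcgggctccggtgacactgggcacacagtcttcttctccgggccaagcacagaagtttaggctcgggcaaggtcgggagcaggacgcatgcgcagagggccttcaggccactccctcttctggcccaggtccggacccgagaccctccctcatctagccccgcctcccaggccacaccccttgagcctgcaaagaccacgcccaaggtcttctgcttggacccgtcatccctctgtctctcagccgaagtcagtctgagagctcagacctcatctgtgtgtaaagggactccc
Acsl3: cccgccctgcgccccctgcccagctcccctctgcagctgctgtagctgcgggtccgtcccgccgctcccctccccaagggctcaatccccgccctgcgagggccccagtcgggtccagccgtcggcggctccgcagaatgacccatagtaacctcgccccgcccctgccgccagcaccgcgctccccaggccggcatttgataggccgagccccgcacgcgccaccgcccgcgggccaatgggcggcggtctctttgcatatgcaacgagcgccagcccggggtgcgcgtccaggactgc
The RefSeq table held promoters of 29 members, 31 in all, and none for Cpt1b, Acaa2, Decr1, Acot13 and Acat1. A copy of AGGTCA lay in the promoters of 5 of these 29 genes (Acadm, Acadvl, Acsm1, Cpt1a and Echs1), and in 16.3% of all 32851 promoters in the table. The loose repeat AGGNCANAGGNCA, on either strand, lay in none of the members' promoters and in 0.381% of all promoters. The shorter motif lies within a match to the repeat only where it has T at an inner N of a repeat unit.

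The members as a whole lay lowest in the insulin-treated mice. Taking each gene against its mean on the Normal arrays, the median over the 34 members was −0.61, −0.65 and −0.41 on STAM-INS replicates 1 to 3, and between −0.02 and 0.03 on the Normal arrays. On the STAM-NON arrays it was 0.07, −0.08 and −0.80. STAM-NON replicates 1 and 2 were thus close to Normal, and replicate 3 lay below every STAM-INS array. The median over all tested probes, taken in the same way, stayed between −0.18 and −0.05 on the 6 STAM arrays. STAM-NON replicate 3 held the lowest STAM-NON value for 30 of the 34 members (88.2%), against 36.7% of all tested probes. It was below all Normal arrays for 30 members, and for 13051 of the 26277 tested probes. Of the 10 hepatocyte markers 4 were lowest there. Replicate 1 held the highest STAM-NON value for 22 members, and for 6261 of the 26277 tested probes. The spread within STAM-NON (SD 0.47 for the median over members, against 0.13 in STAM-INS and 0.02 in Normal) enters every test, since the groups shared one estimate of error.

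Markers of other cell types were read on the same arrays. Beside the calls given here, 6.3% of all probes rose and 9.76% fell in STAM-NON against Normal. In STAM-INS against Normal 5.16% rose and 8.73% fell. The summed linear signal of 5 macrophage markers, in units of the 75th percentile spot, was 82.6 to 129.8 in STAM-NON, 76.3 to 143.7 in STAM-INS and 52.7 to 72.2 in Normal, and 1 of the 5 rose in each STAM group. That of the 10 hepatocyte markers was 4178 to 5204, 4692 to 5005 and 5496 to 5840, and 1 of the 10 fell in each STAM group, near the share of all probes that fell. That of 5 biliary, progenitor and tumour markers was 2.87 to 5.57, 2.69 to 12.3 and 0.733 to 1.52, and 2 of the 3 that could be tested rose in each. Stellate cell and myofibroblast markers summed to 10.1 to 16.7, 5.77 to 14.2 and 4.67 to 8.76, with none of 6 called. Of the leukocyte and lymphocyte markers Ptprc rose in both STAM groups, by 1.09 and 1.15 (adjusted p = 0.0317 and 0.0284), as 1 of the 3 that could be tested, while the list summed to 7.27 to 8.34, 7.34 to 9.46 and 7.89 to 8.56. Of 4 endothelial markers, which summed to 26.6 to 44.8, 21.5 to 35.6 and 29.1 to 33.7, Lyve1 rose in STAM-NON by 3.01 (adjusted p = 0.024) and none was called in STAM-INS. Erythroid markers varied from mouse to mouse in the STAM groups, with sums of 56.9, 212 and 386 on STAM-NON replicates 1 to 3, 74.7, 527 and 302 on STAM-INS and 100.9 to 112.5 in Normal, and none of the 3 that could be tested was called. Within STAM-NON the erythroid sum was highest on replicate 3, where the members were lowest. On STAM-INS replicates 1 to 3 the sums of 74.7, 527 and 302 stood beside members' medians of −0.61, −0.65 and −0.41. The erythroid markers did not move together. Alas2 lay below Normal without overlap in both STAM groups (−1.68 and −1.11), while Hba-a1 and Hbb-b1 were higher on average and overlapped with Normal. Every marker of the macrophage, hepatocyte, stellate and endothelial lists was detected on all arrays. Cd79a and Cd8a, markers of B and T cells, were each detected on at most 1 array of a group. The part of these cells in the members' differences was not tested.

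**Figure D1:**
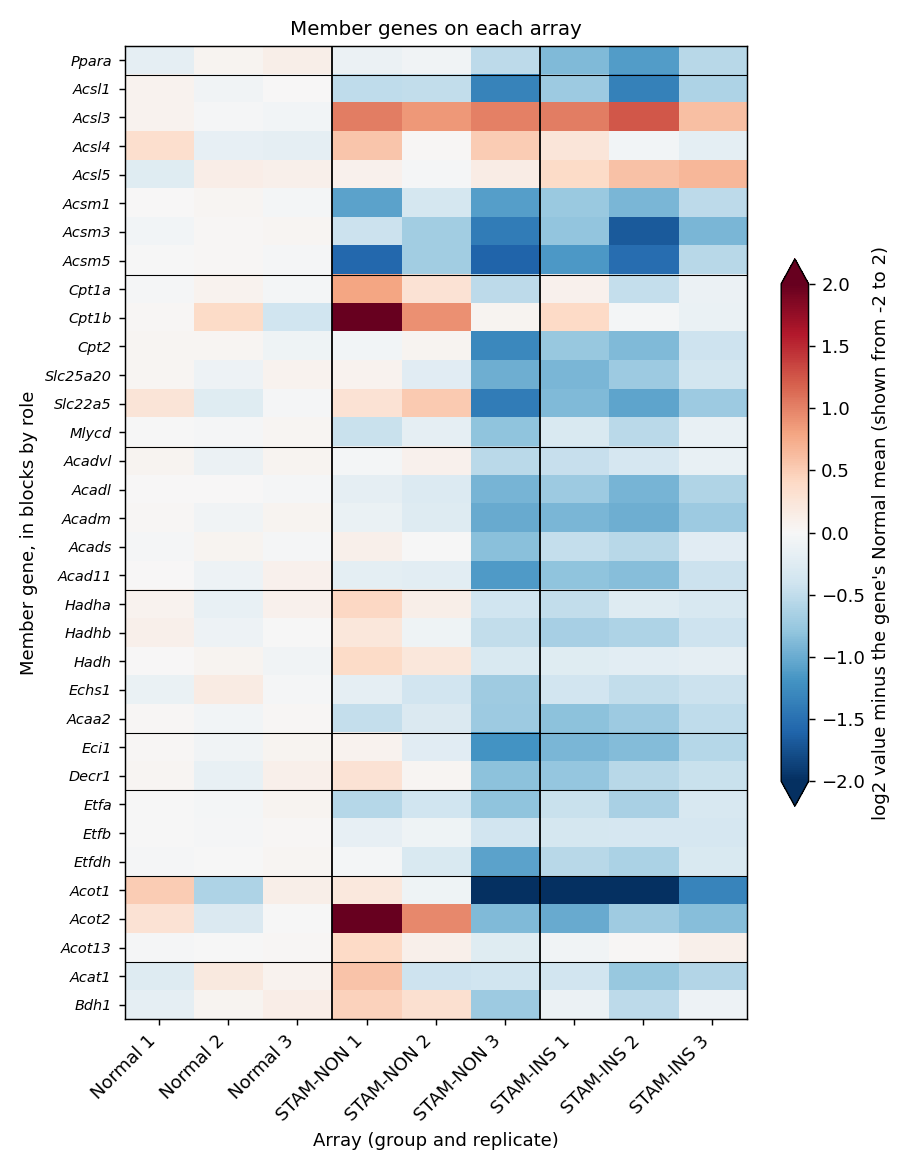
Each cell is the log2 value of a member gene (rows, in blocks by role, in the order of the text) on an array (columns) minus the mean of that gene on the 3 Normal arrays, in blue where lower and red where higher, on a colour scale from −2 to 2. Most rows are blue on STAM-NON replicate 3 and on the 3 STAM-INS arrays, while Acsl3 is red on all 6 STAM arrays.

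**Figure D2:**
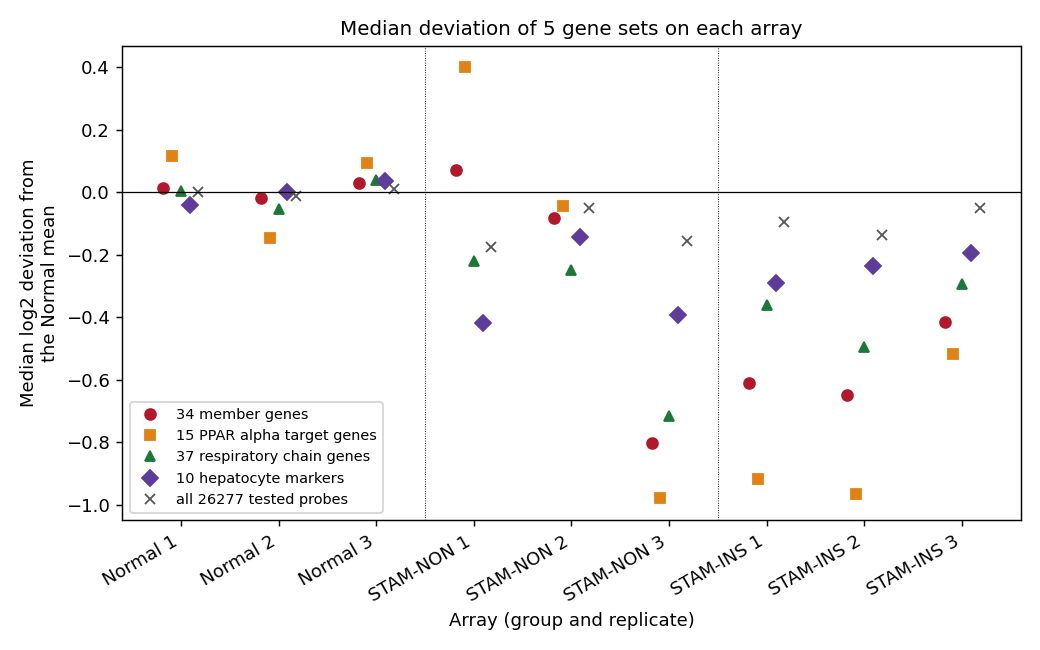
Points give, for each array on the x axis, the median over a gene set of the log2 deviation from the Normal mean. The members stand at −0.80 on STAM-NON replicate 3 and between −0.65 and −0.41 on the STAM-INS arrays, and all tested probes between −0.18 and −0.05 on the STAM arrays.

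In STAM-NON against Normal, 5 of 34 members passed the threshold (background, 16.1% of all probes). Acsl3 rose (background for higher, 6.3%), and Acsm1, Acsm5, Acaa2 and Etfa fell (background for lower, 9.76%). The median difference over members was −0.24, beside −0.13 over all probes, and 24 of 34 lay below 0. All STAM-NON arrays were below all Normal arrays for 13 of 34 members, where 28.0% of all probes were so placed, and all were above for Acsl3 alone, where 13.2% of all probes were. The median rested on STAM-NON replicate 3. Without that array it was 0.01, above the −0.11 over all probes, and 13 of 34 members lay below the latter. Acsl3 was the sole member called without STAM-NON replicate 1, without STAM-NON replicate 3 or without any one of the Normal arrays, when between 3.56% and 7.2% of all probes were called. All STAM-NON arrays lay in the first row of their slide and all Normal arrays in the second row of theirs. Row and group thus cannot be told apart from these 2 groups alone. With the slide row as a block no member was called, and 0.0571% of all probes were. That block rests on STAM-INS, which had replicate 1 alone in the first row.

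In STAM-INS against STAM-NON, the comparison of insulin treatment within the model, no member passed the threshold by limma, and few probes did at all (background, 0.0913%). The lowest adjusted p was 0.465. By the methods' t-test the count was also 0 after Benjamini-Hochberg adjustment (background, 0.00381%), and 2 before it, Ppara and Acsl5 (background, 5.7%). At limma's unadjusted p under 0.05 there were 4 members, Ppara, Hadhb and Acot2 lower and Acsl5 higher in STAM-INS, where 8.78% of all probes had such a p. The 2 groups did not overlap for Ppara, lower in STAM-INS (background, 4.92%), and for Acsl5, higher there (background, 7.24%). The median difference over members was −0.28, beside 0.03 over all probes, and 29 of 34 lay below 0. That median was −0.52 without STAM-NON replicate 3, when Slc22a5 fell past the threshold, and −0.08 without STAM-NON replicate 1. On the STAM slide, the STAM-NON arrays and STAM-INS replicate 1 lay in the first row and STAM-INS replicates 2 and 3 in the second. Within the first row the median of STAM-INS replicate 1 minus the STAM-NON mean was −0.28, with 25 of 34 members below 0.

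In STAM-INS against Normal, 8 of 34 members passed the threshold (background, 13.9%). Acsl3 and Acsl5 rose (background for higher, 5.16%), and Ppara, Acsm3, Acsm5, Acadl, Acadm and Acaa2 fell (background for lower, 8.73%). The median difference was −0.57, beside −0.09 over all probes, and 30 of 34 members lay below 0. All STAM-INS arrays were below all Normal arrays for 27 of 34 members, where 29.0% of all probes were, and above for Acsl3 and Acsl5, where 15.1% were. The number called turned on STAM-NON replicate 3, whose spread enters the shared error. With that array left out, 23 of 34 members were called, 21 of them lower (16.4% of all probes called), and with STAM-NON left out as a group also 23, 21 of them lower (19.8% of all probes called). It also turned on each of the STAM-INS and Normal arrays, and was 3, 1 and 4 without STAM-INS replicates 1, 2 and 3 (8.33%, 3.76% and 7.04% of all probes called), and 2, 1 and 1 without Normal replicates 1, 2 and 3 (5.26%, 5.69% and 4.63%). The share of all probes called fell with the members' count in each of these 6 fits.

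**Figure D3:**
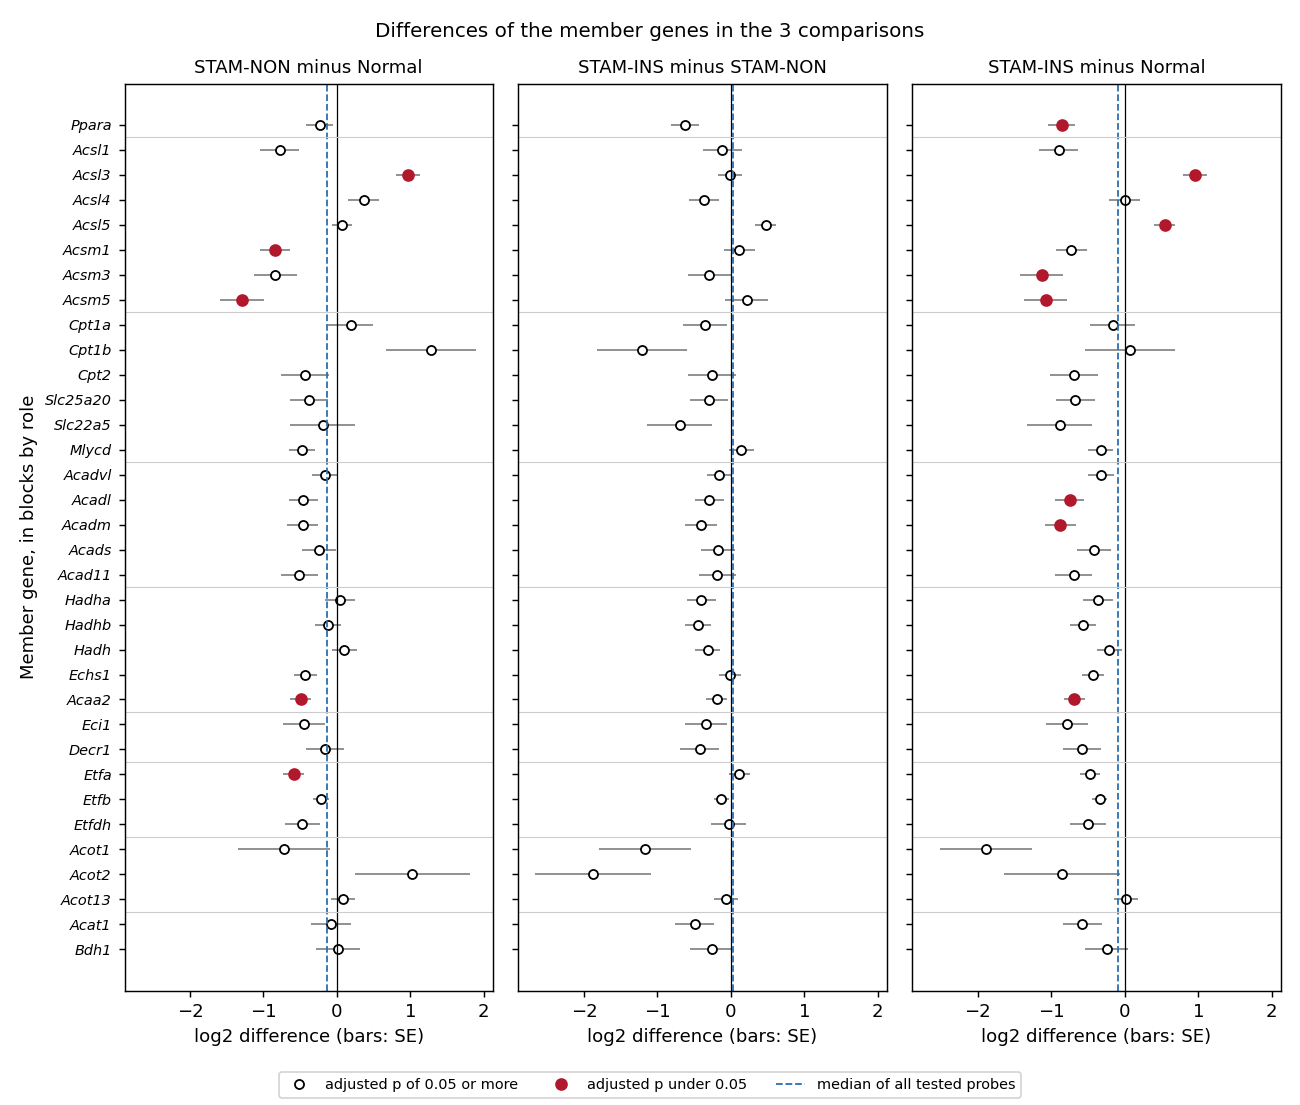
Points give the log2 difference of each member in the 3 comparisons, with bars of 1 SE, filled red where the adjusted p was under 0.05, and the dashed line is the median over all tested probes. Most points of STAM-INS minus Normal lie left of the dashed line, those called there being 2 higher and 6 lower, and no point of STAM-INS minus STAM-NON is filled.

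Ppara, the receptor itself, read 6.37, 6.41 and 5.96 on STAM-NON replicates 1 to 3, 5.59, 5.36 and 5.92 on STAM-INS and 6.31, 6.54 and 6.61 on Normal. Every STAM-INS array lay below every other array, and STAM-NON replicates 1 and 2 lay within the Normal range. Ppara fell in STAM-INS against Normal by 0.86 (SE 0.19, adjusted p = 0.0229). The difference of STAM-NON from Normal was −0.23 (SE 0.19, adjusted p = 0.385), and that of STAM-INS from STAM-NON −0.62 (SE 0.19, adjusted p = 0.473). The 2 other Ppara probes fell by 0.89 and 0.83 in STAM-INS against Normal, with adjusted p of 0.0186 and 0.0252, and gave −0.58 and −0.54 against STAM-NON.

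Among the enzymes that activate fatty acids, 2 of the 4 long-chain acyl-CoA synthetases rose past the threshold and none fell past it. Acsl3, which is held to lipid droplets and the endoplasmic reticulum, read 0.71, 0.56 and 0.69 on STAM-NON, 0.71, 0.92 and 0.29 on STAM-INS and −0.25, −0.34 and −0.36 on Normal. The Normal arrays lay within a narrow band below all STAM arrays. Acsl3 rose by 0.97 in STAM-NON (SE 0.16, adjusted p = 0.0125) and by 0.95 in STAM-INS (SE 0.16, adjusted p = 0.0102) against Normal, and STAM-INS differed from STAM-NON by −0.01. Acsl5, an isoform of mitochondria and the endoplasmic reticulum, read 4.84, 5.04 and 5.12 on STAM-INS, 4.55, 4.43 and 4.60 on STAM-NON and 4.22, 4.60 and 4.56 on Normal. The 3 STAM-INS arrays lay above all others. Acsl5 rose in STAM-INS against Normal by 0.54 (SE 0.14, adjusted p = 0.0374), and the difference from STAM-NON was 0.47 (SE 0.14, adjusted p = 0.465). With the arrays centred on their median instead, Acsl3 and Acsl5 kept these directions against Normal in STAM-INS but missed the threshold, as did Acsl3 in STAM-NON. Acsl1, the main isoform of liver, was below all Normal arrays on all STAM arrays, with differences of −0.78 in STAM-NON and −0.90 in STAM-INS that missed the threshold (adjusted p = 0.0756 and 0.0565). Its other probe gave −1.06 and −1.16, the second of which passed (adjusted p = 0.0441). Acsl4, which prefers arachidonic acid, overlapped between all groups and differed by 0.36 in STAM-NON and −0.00 in STAM-INS from Normal.

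The medium-chain synthetases Acsm1, Acsm3 and Acsm5, mitochondrial enzymes of liver and kidney, lay below all Normal arrays on every STAM array. Of all probes, 28.0% were so placed in STAM-NON and 29.0% in STAM-INS. Acsm5 read 2.63, 3.50 and 2.60 on STAM-NON, 3.06, 2.69 and 3.64 on STAM-INS and 4.20, 4.23 and 4.18 on Normal. It fell by 1.29 in STAM-NON (SE 0.29, adjusted p = 0.0268) and by 1.08 in STAM-INS (SE 0.29, adjusted p = 0.0457). Acsm1 read 5.60, 6.33 and 5.57 on STAM-NON, 5.94, 5.77 and 6.14 on STAM-INS and 6.68, 6.71 and 6.64 on Normal. It fell by 0.84 in STAM-NON (SE 0.21, adjusted p = 0.0325), while in STAM-INS it differed by −0.73 and missed the threshold (adjusted p = 0.052), which its other probe passed (−0.75, adjusted p = 0.046). Acsm3 read 3.99, 3.71 and 3.01 on STAM-NON, 3.62, 2.72 and 3.49 on STAM-INS and 4.35, 4.43 and 4.44 on Normal. It fell in STAM-INS by 1.13 (SE 0.29, adjusted p = 0.0389) and differed by −0.84 in STAM-NON (adjusted p = 0.0816), but its other probe gave −0.95 in STAM-INS and did not pass (adjusted p = 0.0855). Insulin-treated and untreated STAM mice overlapped for all 3 genes, with differences of 0.11, −0.29 and 0.22 for Acsm1, Acsm3 and Acsm5.

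**Figure D4:**
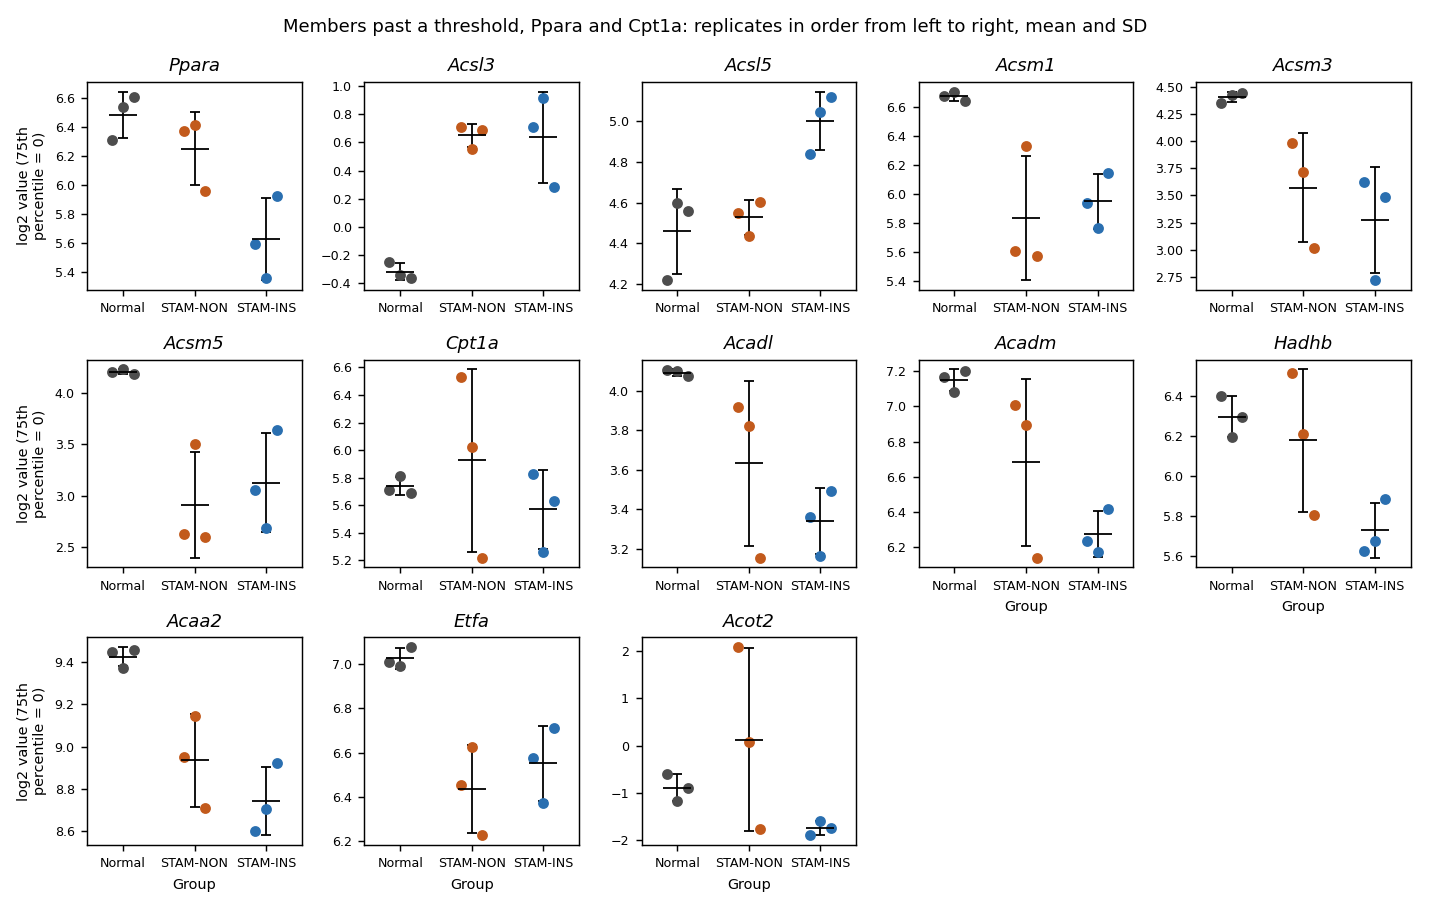
Points are the log2 values of replicates 1 to 3 of each group, and the bars mark mean and SD (n = 3), for the 12 members that passed the threshold in a comparison or had an unadjusted p under 0.05 between the STAM groups, and for Cpt1a. STAM-NON replicate 3 is the lowest STAM-NON point for Acadm at 6.14 and Ppara at 5.96, and the Normal points of Acsl3 lie below 0.

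None of the 6 genes of the carnitine shuttle and its control passed in any comparison. Cpt1a, the liver form of the rate-controlling carnitine palmitoyltransferase, read 6.53, 6.02 and 5.22 on STAM-NON, 5.83, 5.26 and 5.63 on STAM-INS and 5.71, 5.82 and 5.69 on Normal. The STAM-NON arrays reached both above and below all Normal arrays. The difference from Normal was 0.19 in STAM-NON (SE 0.30, adjusted p = 0.68) and −0.17 in STAM-INS (SE 0.30, adjusted p = 0.731), and STAM-INS differed from STAM-NON by −0.35. Its second probe gave 0.15, −0.21 and −0.35. Cpt2, which turns carnitine esters back to acyl-CoA, differed by −0.69 in STAM-INS against Normal, Slc25a20, the carnitine and acylcarnitine translocase, by −0.67, and Slc22a5, the carnitine transporter of the cell membrane, by −0.89, all 3 without overlap between the groups (background for lower, 29.0%). Slc22a5 read 0.97, 1.21 and −0.71 on STAM-NON, and STAM-INS lay between −0.37 and −0.05. Mlycd, which breaks down malonyl-CoA, differed by −0.47 in STAM-NON and −0.33 in STAM-INS, again without overlap.

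Cpt1b, the muscle and brown fat form, read 0.59, −1.37 and −2.22 on STAM-NON, −1.88, −2.32 and −2.42 on STAM-INS and −2.26, −1.90 and −2.68 on Normal. It stood out on STAM-NON replicate 1, also by its second probe, which read −0.08 there, −1.73 and −2.17 on the other STAM-NON arrays and at most −1.91 elsewhere. On that array adipocyte markers were also at their highest. Of 4 such markers 3 were detected there (Adipoq, Plin1 and Ucp1), and at most 1 on any other array, while Lep was detected on none. Their summed linear signal, in units of the 75th percentile spot, was 2.35 on STAM-NON replicate 1, 0.128 and 0.104 on the other STAM-NON arrays, 0.0672 to 0.0862 in STAM-INS and 0.0568 to 0.0937 in Normal. Ucp1, the uncoupling protein of brown fat, read 0.82 there and between −6.94 and −5.25 elsewhere. Of 4 muscle markers, 1 was detected on STAM-NON replicate 1, none on replicate 2 and 2 on replicate 3, with at most 3 on a STAM-INS array and 1 on a Normal array, and Ckm was detected on none. Their sum was 0.215, 0.213 and 0.420 on STAM-NON replicates 1 to 3, 0.098 to 0.379 in STAM-INS and 0.105 to 0.206 in Normal. The part of such cells in the values of Cpt1b was not tested.

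A dehydrogenation opens each round of the cycle. All 5 acyl-CoA dehydrogenases listed lay below all Normal arrays on all STAM-INS arrays, as did 29.0% of all probes. Acadm, the medium-chain enzyme, read 7.01, 6.90 and 6.14 on STAM-NON, 6.23, 6.17 and 6.42 on STAM-INS and 7.17, 7.08 and 7.20 on Normal. STAM-NON replicate 3 was the lowest of the 9. Acadm fell in STAM-INS against Normal by 0.88 (SE 0.22, adjusted p = 0.0339), and differed by −0.47 in STAM-NON (adjusted p = 0.158) and by −0.41 between STAM-INS and STAM-NON (adjusted p = 0.625). Acadl, the long-chain enzyme, read 3.92, 3.82 and 3.16 on STAM-NON, 3.36, 3.17 and 3.50 on STAM-INS and 4.10, 4.10 and 4.07 on Normal. It fell in STAM-INS by 0.75 (SE 0.20, adjusted p = 0.0421) and differed by −0.46 in STAM-NON (adjusted p = 0.137). Acad11, an enzyme for longer chains, differed by −0.70 in STAM-INS against Normal, Acads, the short-chain enzyme, by −0.42, and Acadvl, the very-long-chain enzyme, by −0.32, none past the threshold.

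In the later steps, Acaa2, the medium-chain thiolase that releases acetyl-CoA, read 8.95, 9.14 and 8.71 on STAM-NON, 8.60, 8.70 and 8.92 on STAM-INS and 9.45, 9.37 and 9.46 on Normal. All STAM arrays lay below all Normal arrays. Acaa2 fell by 0.49 in STAM-NON (SE 0.14, adjusted p = 0.0488) and by 0.68 in STAM-INS (SE 0.14, adjusted p = 0.0198). Hadha and Hadhb encode the α and β subunits of the trifunctional protein, which carries out the last 3 steps on long chains. They are transcribed away from each other, and the 2 promoter windows in RefSeq (chr5:30154931-30155230 on the − strand and chr5:30155003-30155302 on the + strand) share 228 bases. Hadhb read 6.51, 6.21 and 5.81 on STAM-NON, 5.63, 5.68 and 5.89 on STAM-INS and 6.40, 6.19 and 6.29 on Normal. It differed by −0.45 between STAM-INS and STAM-NON (SE 0.18, limma's unadjusted p = 0.0364, adjusted p = 0.545) and by −0.57 between STAM-INS and Normal (adjusted p = 0.0697), and Hadha by −0.40 and −0.36. The difference of STAM-NON from Normal was −0.12 for Hadhb and 0.04 for Hadha. Echs1, the short-chain enoyl-CoA hydratase, differed by −0.43 in STAM-NON and −0.44 in STAM-INS, without overlap, and Hadh, the short-chain hydroxyacyl-CoA dehydrogenase, by 0.10 and −0.21. Eci1 and Decr1, which let unsaturated fatty acids enter the cycle, differed by −0.78 and −0.58 in STAM-INS against Normal, without overlap (background for lower, 29.0%) and without passing.

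The electron transfer flavoprotein hands electrons of the dehydrogenases to the respiratory chain. Its α subunit Etfa read 6.45, 6.63 and 6.23 on STAM-NON, 6.57, 6.37 and 6.71 on STAM-INS and 7.01, 6.99 and 7.08 on Normal. Both STAM groups lay below Normal and overlapped each other. Etfa fell in STAM-NON by 0.59 (SE 0.14, adjusted p = 0.0285) and differed by −0.47 in STAM-INS (SE 0.14, adjusted p = 0.0547). The β subunit Etfb and the oxidoreductase Etfdh, which receives the electrons, differed by −0.21 and −0.47 in STAM-NON and by −0.34 and −0.50 in STAM-INS, without overlap (background for lower, 28.0% and 29.0%) and without passing. One of 2 further Etfb probes passed in STAM-INS (−0.42, adjusted p = 0.0371), and the other overlapped between groups.

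The 37 measured genes of the respiratory chain and ATP synthase, taken for comparison, had median differences of −0.40 in STAM-NON and −0.40 in STAM-INS against Normal, and 0.02 between STAM-INS and STAM-NON. All STAM-NON arrays were below all Normal arrays for 31 of the 37 (background, 28.0%), and all STAM-INS arrays for 33 (background, 29.0%). Of these genes 4 fell in STAM-NON (background for lower, 9.76%) and 1 in STAM-INS (background for lower, 8.73%) against Normal. STAM-NON replicate 3 was the lowest STAM-NON array for 36 of them (background, 36.7%). The members' medians of −0.24 in STAM-NON and −0.57 in STAM-INS thus stood on either side of those of the respiratory chain, a difference that was not tested.

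Acyl-CoA thioesterases free fatty acids from CoA, and Acot1 and Acot2 are close paralogs whose probes may share signal. Acot2, the mitochondrial one, read 2.09, 0.07 and −1.77 on STAM-NON, −1.90, −1.60 and −1.74 on STAM-INS and −0.61, −1.18 and −0.89 on Normal. STAM-NON spanned more than the other groups together, its highest value being on replicate 1, the array with the adipocyte markers, whose part was not tested here either. Acot2 differed by −1.88 between STAM-INS and STAM-NON (SE 0.79, limma's unadjusted p = 0.0422, adjusted p = 0.555). Without STAM-NON replicate 1 that difference was −0.90. Acot1, the cytosolic one, read 6.22, 5.93 and 3.73 on STAM-NON, 3.91, 3.76 and 4.69 on STAM-INS and 6.51, 5.39 and 6.12 on Normal. It had the widest difference of the members in STAM-INS against Normal, −1.89 (SE 0.63, adjusted p = 0.0782), without overlap. Acot13 differed by at most 0.08 in size between any 2 groups.

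Acat1, which joins acetyl-CoA to acetoacetyl-CoA, differed by −0.58 in STAM-INS against Normal, without overlap (adjusted p = 0.175), and by −0.08 in STAM-NON. Bdh1, which turns acetoacetate into β-hydroxybutyrate, read 7.08, 6.94 and 5.90 on STAM-NON, 6.51, 6.10 and 6.53 on STAM-INS and 6.45, 6.68 and 6.76 on Normal, and overlapped in all comparisons.

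A list of 35 related genes gave 9 calls in STAM-NON against Normal, 3 higher and 6 lower, beside 16.1% of all probes, and 10 in STAM-INS against Normal, 4 higher and 6 lower, beside 13.9%. In STAM-INS against STAM-NON none was called by limma, and 6 had an unadjusted p under 0.05, beside 8.78% of all probes. Fgf21, a fasting hormone and PPARα target, rose in both STAM groups. It read 2.36, 1.39 and 1.08 on STAM-NON, 1.64, 1.27 and 2.91 on STAM-INS and −0.91, −2.14 and −1.32 on Normal, a rise of 3.07 (adjusted p = 0.0125) and 3.40 (adjusted p = 0.00676). Ucp2, a mitochondrial carrier, rose by 2.62 and 1.97. Acacb, the acetyl-CoA carboxylase whose malonyl-CoA blocks Cpt1a, read 3.72, 3.53 and 4.14 on STAM-NON, 4.32, 5.13 and 4.73 on STAM-INS and 2.60, 3.15 and 2.90 on Normal. The 3 groups did not overlap, with a rise of 0.92 in STAM-NON (adjusted p = 0.0414) and of 1.84 in STAM-INS (adjusted p = 0.00456) against Normal, and a difference of 0.93 between STAM-INS and STAM-NON (adjusted p = 0.411).

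Ppargc1b, the coactivator PGC-1β, ran the other way. It read −0.90, −0.95 and −1.63 on STAM-NON, −1.78, −2.00 and −1.87 on STAM-INS and −0.54, −0.46 and −0.27 on Normal, with no overlap between the 3 groups. It fell by 0.73 in STAM-NON (adjusted p = 0.0419) and by 1.46 in STAM-INS (adjusted p = 0.00474), and differed by −0.73 between STAM-INS and STAM-NON (adjusted p = 0.428). Rxra, the partner of PPARα, fell in STAM-NON by 0.61 (adjusted p = 0.0219). Angptl4, a PPARα target that inhibits lipoprotein lipase, fell in STAM-INS by 1.51 (adjusted p = 0.019). Enzymes of branched-chain amino acid breakdown, Acadsb and Ivd, fell in both STAM groups, by 1.17 and 0.99 in STAM-NON and by 1.03 and 0.90 in STAM-INS, as did Bdh2, by 2.06 and 1.74. Over the 15 PPARα targets outside the mitochondrial cycle the median difference was −0.27 in STAM-NON and −0.85 in STAM-INS against Normal and −0.48 between STAM-INS and STAM-NON. In STAM-INS 12 of 15 were below Normal without overlap, where 29.0% of all probes were so placed. The STAM-NON replicate 3 array was the lowest STAM-NON array for all 15, and for 36.7% of all probes.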

How the data were processed

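Per the labels, total liver RNA was labelled with Cy3, 1 array per mouse. The labels and the study's array methods name different RNA extraction kits. The authors deposited the scanner output of Agilent Feature Extraction 11.5.1.1, and the processed signal used here is a background-subtracted intensity on a linear scale, not normalized between arrays. Per the file headers the array was designed on mm9. Each array held 59305 non-control spots of 55681 probes; 46.2% to 65.0% of spots were well above background, 161 to 217 carried an outlier flag and were left out, and none was saturated. Precision is limited by the 3 arrays per group.

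Signals were put on the log2 scale, spots of a probe were averaged, and the 75th percentile of the array was subtracted. Probes entered the test when a share of 0.5 or more of their spots passed the detection flag on all arrays of a group. The linear model (limma 3.58.1, R 4.3.3, two-sided moderated test) was fitted to all 9 arrays, with 6 residual degrees of freedom and Benjamini-Hochberg adjustment over 26277 probes at a threshold of 0.05. p-values measure the spread between these mice. A member was counted by its tested probe with the highest mean. Names came from a RefSeq table (GRCm38.p6) that named 27656 probes. The code was tested on simulated data.

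The members, the related genes and the markers were chosen with earlier results of these data known, so no set test was run. Values on every array are given for Ppara, Cpt1a and each member past the threshold, or with an unadjusted p under 0.05 between the STAM groups; of related genes at most 8 past the threshold were named per comparison, by size; Cpt1b, Slc22a5, Acot1 and Bdh1 were added after their values were seen. The alternatives tried cover background correction, where the files hold a median in place of a mean spot signal, normalization, filters, the choice of probe and test, slide row, replicate block and leaving out each array.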

Additional observations from a re-analysis of the deposited data

How the results depend on the processing

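Each of the 13 calls of single members kept its direction under all alternatives run, being past an adjusted p of 0.05 in 174 of 312 values and not in 138 (the t-test without adjustment is not counted). Percentages are shares of all probes called under the setting. In STAM-NON against Normal, the number of members called changed from 5 (16.1%) to 2 (1 higher, 1 lower; 11.3%) with quantile normalization, to 2 (0 higher, 2 lower; 10.1%) when centred on the median, to 2 (1 higher, 1 lower; 8.49%) when centred on spike-ins, to 3 (1 higher, 2 lower; 12.0%) with the percentile over detected probes, to 2 (8.3%) with only the 2 groups in the fit, and to 0 with no filter on dim probes (0.449%), with the slide row as a block (0.0571%) or by the methods' t-test after Benjamini-Hochberg (0.114%). In STAM-INS against Normal it changed from 8 (13.9%) to 4 (2 higher, 2 lower; 11.7%) with quantile normalization, 3 (1 higher, 2 lower; 8.38%) with spike-ins, 5 (2 higher, 3 lower; 11.3%) with the percentile over detected probes, 0 (1.03%) with no filter, 13 (15.3%) with trend and robust eBayes, 23 (19.8%) with only the 2 groups in the fit, 3 (8.21%) with the slide row as a block and 29 (33.5%) by the methods' t-test at an unadjusted p under 0.05, and was 6 (0 higher, 6 lower; 9.83%) when centred on the median. By the methods' t-test after Benjamini-Hochberg it was 7 (0 higher, 7 lower; 10.8%), of which Acadl, Acadm and Acaa2 were among the 8, while Acsl3, Acsl5, Ppara, Acsm3 and Acsm5 were not called. In STAM-INS against STAM-NON it changed from 0 to 2 (5.7%) by the methods' t-test at an unadjusted p. The cause of these changes was not tested. With the replicate number as a block, 1 member was called in STAM-NON against Normal (7.67%), 1 in STAM-INS against Normal (7.12%) and 0 in STAM-INS against STAM-NON. Arrays with the same number did not deviate together (correlations from −0.288 to 0.149), and the labels do not say what the numbers share. With 1 array left out in turn, the members called ranged from 1 to 6 in STAM-NON against Normal, from 0 to 1 in STAM-INS against STAM-NON and from 1 to 23 in STAM-INS against Normal, and the median difference from −0.42 to 0.01, from −0.52 to −0.08 and from −0.62 to −0.50.

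Across scalings the all-probe median in STAM-NON against Normal ran from −0.30 (centred on the median) to 0.03 (percentile over detected probes), with −0.13 reported. In STAM-INS against Normal it ran from −0.28 to 0.03. The 4 centrings moved all probes alike and could not change the members' median minus that median (−0.10 and −0.48). Quantile normalization gave −0.07 and −0.33. Among the 13 members with values on every array by the naming rule, directions turned for 21 values, none of them called. These were, in STAM-NON against Normal, Ppara (0.039 with quantile normalization), Acsl5 (−0.0989 centred on the median, from −0.0502 to 0.14 with 1 array left out), Cpt1a (−0.20 with the slide row as a block, from −0.12 to 0.54 with 1 array left out) and Hadhb (0.15 with quantile normalization, 0.0159 centred on spike-ins, 0.0461 with the percentile over detected probes, 0.0343 with the slide row as a block, from −0.29 to 0.0665 with 1 array left out). They were, in STAM-INS against STAM-NON, Acsl3 (0.0578 with the slide row as a block, from −0.15 to 0.16 with 1 array left out), Acsm1 (−0.0333 centred on spike-ins, from −0.0173 to 0.36 with 1 array left out), Acsm3 (0.0501 with the slide row as a block), Acsm5 (from −0.0402 to 0.51 with 1 array left out) and Etfa (−0.032 centred on spike-ins). They were, in STAM-INS against Normal, Cpt1a (0.0366 with quantile normalization). Of the other 21 members, 13 turned under an alternative in STAM-NON against Normal, 6 in STAM-INS against STAM-NON and 4 in STAM-INS against Normal, none of them called. The slide as a random block was not run, since with group means in the fit no slide deviation is left to estimate.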
